A study of Mus musculus with 5 samples.

Results

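The cells described here are kidney T cells with a high count of 4 interferon-induced genes, Ifit1, Ifit3, Rsad2 and Slfn5. They were selected on measured counts in 2 kidney libraries. A cell needed 500 or more UMIs (unique molecular identifiers, each standing for 1 captured transcript) from 250 or more genes, with no more than 20% of them mitochondrial. It also needed 1 or more UMIs of Cd3d, Cd3e or Cd3g, and 3 or more UMIs of the 4 genes together. The rule found 247 cells among the 20619 kept cells of the 4 libraries with counts. Of these interferon-high T cells, 139 came from 5187 T cells of the kidney library labelled PD-1-KO and 108 from 3582 T cells of the wild-type kidney library. They were set against the T cells of the same library with none of the 4 transcripts, called T cells at 0, of which there were 4393 in the library labelled PD-1-KO and 2993 in wild-type kidney. As the cells were chosen by the 4 genes, the levels of those genes are a description.

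The study profiled lymphoid cells in unilateral ureteral obstruction (UUO), in which the left ureter of a mouse is tied off and cut and the blocked kidney scars. The 2 kidney libraries came from male mice of 8 to 10 weeks: B6.Cg-Pdcd1tm1.1Shr/J mice, which carry a germline allele of the gene for PD-1, 3 days after UUO, and mice given only as wild type 14 days after UUO. Small intestine of wild-type mice 3 days after UUO and after sham surgery, in which the ureter was exposed and not tied, was used only as a side value. The wild-type kidney library from day 3 was not analysed here. Each group is 1 BD Rhapsody library with no replicate, and no source used here says how many mice it came from. No difference was therefore tested, and ranges in brackets are exact 95% intervals that cover counting error only. Genotype and day differ together between the kidney libraries and cannot be told apart. The labels call the sorted kidney cells innate lymphoid cells, yet 5187 of 6960 kept cells labelled PD-1-KO and 3582 of 5212 kept wild-type cells had a Cd3 UMI. Among the interferon-high cells, 98.6% in the library labelled PD-1-KO and 99.1% in wild-type kidney also held a T cell receptor constant-region UMI (Trac, Trbc1 or Trbc2). Pdcd1 itself was counted at 127 CPM (UMIs of a gene scaled to the total UMIs of the class) in interferon-high cells and 212 CPM in T cells at 0 of the library labelled PD-1-KO, against 90.8 and 158 CPM in wild-type kidney. These counts come from poly(A) capture and check the genotype only if the deleted part holds the counted end, which no source used here states.

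Interferons are cytokines that warn cells of infection or damage. Type I interferons bind the receptor IFNAR1/IFNAR2 and interferon-gamma binds IFNGR1/IFNGR2. Both act through Janus kinases and the transcription factors that these activate. The factors activated by type I interferons, IRF9 among them, bind the interferon-stimulated response element. The genes they switch on encode proteins that bind viral RNA, degrade it or block its translation, together with sensors, GTPases that attack pathogen membranes, antigen-loading proteins and inhibitors that end the response.

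Ifit1 and Ifit3 encode tetratricopeptide proteins that bind viral RNA, Rsad2 encodes viperin, a radical enzyme that makes a chain-terminating nucleotide, and Slfn5 belongs to the Schlafen family. The promoters of the 4 selection genes and of 3 further genes that were high in the cells are shown because each holds letters that match the core of the response element. The sequences are from RefSeq on GRCm38.p6, each a stretch of 90 bases before the annotated start, written 5′ to 3′ along the gene. The core searched was GAAANNGAAA on both strands, seen on the other strand as TTTCNNTTTC, and the capitals mark its GAAA or TTTC blocks.
Ifit1, chr19:34640769-34640858, plus strand: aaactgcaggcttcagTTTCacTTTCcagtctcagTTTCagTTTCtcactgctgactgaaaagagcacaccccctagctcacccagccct
Ifit3, chr19:34583372-34583461, plus strand: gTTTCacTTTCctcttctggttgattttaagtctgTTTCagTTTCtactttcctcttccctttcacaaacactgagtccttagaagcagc
Rsad2, chr12:26456518-26456607, minus strand: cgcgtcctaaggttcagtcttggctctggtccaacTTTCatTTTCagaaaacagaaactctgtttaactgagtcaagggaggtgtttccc
Slfn5, chr11:82951912-82952001, plus strand: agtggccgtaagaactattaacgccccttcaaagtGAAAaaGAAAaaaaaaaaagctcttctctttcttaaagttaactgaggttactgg
Isg15, chr4:156200830-156200919, minus strand: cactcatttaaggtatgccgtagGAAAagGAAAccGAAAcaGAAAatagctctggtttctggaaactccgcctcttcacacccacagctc
Bst2, chr8:71537542-71537631, minus strand: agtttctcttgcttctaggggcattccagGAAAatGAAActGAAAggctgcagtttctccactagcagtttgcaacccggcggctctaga
Cxcl10, chr5:92349048-92349137, minus strand: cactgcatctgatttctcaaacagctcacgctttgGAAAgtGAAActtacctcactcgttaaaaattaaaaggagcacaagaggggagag
Ifit1 and Ifit3 held the core 2 times each, Rsad2, Slfn5 and Cxcl10 once, Isg15 3 times and Bst2 2 times, and the matches in Isg15 and in Bst2 overlap each other. Over all RefSeq promoter windows, which run from 250 bases before to 50 after a start, 1131 of 32851 held the core (3.44%). A match is a run of letters and was not tested as a binding site.

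In the interferon-high T cells, Ifit1 had 539 CPM in the library labelled PD-1-KO and 625 CPM in wild-type kidney. Ifit3 had 579 and 650 CPM, and Rsad2 287 and 323 CPM in the same order. Slfn5 was the highest at 808 and 1013 CPM. The T cells at 0 have none of these transcripts by construction. Only 24 cells labelled PD-1-KO and 13 wild-type cells showed all 4 genes, while 36 and 26 showed a single one. Slfn5 alone carried 19 of the cells labelled PD-1-KO and 16 of the wild-type cells.

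The 4 genes were counted in the same cells far more often than in T cells without them. Where 3 of the genes together reached 3 UMIs, the one left out could be read without having chosen the cell. Against T cells with none of the other 3, Rsad2 was higher by a log2 ratio of 6.0 (5.5 to 6.52) in the library labelled PD-1-KO and 5.54 (4.93 to 6.17) in wild-type kidney. Ifit1 stood at 4.81 and 5.39, Ifit3 at 4.67 and 5.31, and Slfn5, the weakest of the set, at 4.44 and 3.61.

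Before the other genes are described, the make-up of the cells has to be given, because a few of them were very deep and held transcripts of another cell type. The median interferon-high T cell had 2443 UMIs in the library labelled PD-1-KO and 1830 in wild-type kidney, against 1978 and 1789 UMIs in the T cells at 0, but the deepest reached 49191 and 24723 UMIs. A list of 47 marker genes of B cells, monocytes and macrophages, kidney epithelium, ILC2, endothelium and fibroblasts was counted in each cell. At least 3 such UMIs were found in 29 of 139 interferon-high cells labelled PD-1-KO (20.9%, 14.4 to 28.6%), which held 44.6% of all UMIs of that class, against 12.8% of its T cells at 0. In wild-type kidney it was 10 of 108 (9.26%, 4.53 to 16.4%), holding 32.6% of the UMIs, against 7.99% of the T cells at 0.

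Markers of vessels, macrophages, tubules and ILC2 stood out in few cells. At least 10 endothelial marker UMIs were seen in 3 interferon-high cells labelled PD-1-KO and 1 wild-type cell, and in 0 of the 4393 and 0 of the 2993 T cells at 0. Monocyte and macrophage markers reached 10 UMIs in 4 and 1 interferon-high cells, against 5 and 0 T cells at 0, and kidney epithelium markers in 1 and 2 interferon-high cells, against 10 and 3 T cells at 0. ILC2 markers did so in 9 and 2 interferon-high cells, against 209 and 65 T cells at 0. Whether such a barcode held a pair of cells, a cell of another type with free T cell RNA, or a T cell with RNA taken up was not tested. The main results below are therefore also given without the cells that held 3 or more of these UMIs, on both sides of the comparison, which left 110 and 98 interferon-high cells. The cells left out are called mixed cells below for short, a name that does not state what they are.

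Summed marker levels show what the filter removes. Over 10 monocyte and macrophage markers, interferon-high cells labelled PD-1-KO had 1361 CPM, against 361 CPM in T cells at 0, and wild-type cells 683 against 714 CPM. Over 12 kidney epithelium markers it was 1011 against 499 CPM and 2844 against 213 CPM, and over 7 endothelium markers 335 against 70.5 CPM and 178 against 99.0 CPM. Neutrophil and erythroid markers, which were not used in the filter, had 616 against 61.0 CPM and 1492 against 81.0 CPM in the library labelled PD-1-KO. After the filter, interferon-high cells labelled PD-1-KO had 346 CPM of the monocyte and macrophage list, 124 of the epithelium list and 72.9 of the endothelium list, against 301, 98.3 and 67.6 CPM in T cells at 0. The filtered wild-type cells had 474, 10.8 and 86.2 CPM, against 730, 24.7 and 101 CPM. The macrophage genes C1qa and Adgre1 and the endothelial genes Cdh5 and Kdr were at 0 in the filtered interferon-high cells of both libraries. These low levels follow largely from the filter, which counts the genes of these lists except Ccr2, Spp1 and Pecam1. They are no separate check of the cells that remain. T cell markers, 10 in number, summed to 7331 and 7430 CPM in the filtered interferon-high cells, against 8006 and 7968 CPM in the filtered T cells at 0.

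**Figure D1:**
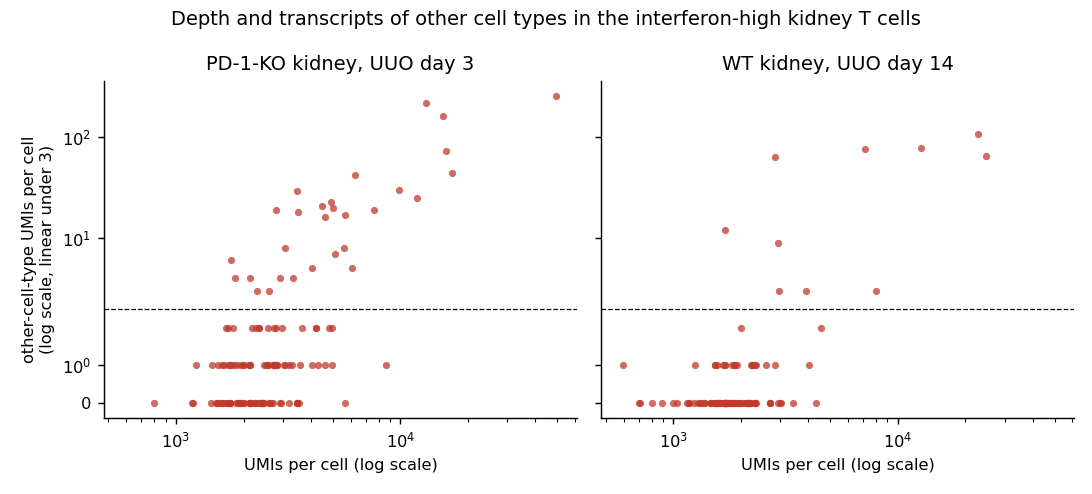
Each point is 1 interferon-high T cell, with its UMIs (log scale) and its UMIs of 47 marker genes of other cell types (log scale above 3, linear below), in the library labelled PD-1-KO (left, 139 cells) and wild-type kidney (right, 108 cells). The 29 and 10 cells above the dashed line held at least 3 such UMIs and include the deepest cells.

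The label of an interferon-stimulated state was checked with 48 antiviral effector genes that did not enter the rule. Their summed level was 10827 CPM (10539 to 11121) in interferon-high T cells labelled PD-1-KO, against 4432 CPM (4390 to 4473) in T cells at 0. In wild-type kidney it was 12529 CPM (12114 to 12954), against 4463 CPM (4408 to 4518). Without the cells holding other-cell transcripts the sums were 13604 and 15667 CPM, against 4543 and 4471 CPM. The antiviral genes were thus higher in both libraries with the mixed cells and without them.

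The level was higher with each step in the count of the 4 genes on both sides of the threshold. In the library labelled PD-1-KO it was 4432 CPM at 0 UMIs of the 4 genes, 5144 at 1, 5928 at 2, 6606 at 3 to 4, 10898 at 5 to 9 and 19227 CPM at 10 or more. Wild-type kidney gave 4463, 5262, 5869, 10206, 12232 and 16249 CPM in the same bins. Without the cells with other-cell transcripts the bins from 3 to 4 UMIs upward stood at 8077, 12272 and 24889 CPM in the library labelled PD-1-KO and at 10620, 19525 and 22278 CPM in wild-type kidney. Cells just inside the threshold, with 3 UMIs, had 5935 CPM in 51 cells labelled PD-1-KO and 9284 CPM in 33 wild-type cells, against 5928 and 5869 CPM in the 135 and 118 cells just outside with 2 UMIs. Once cells with other-cell transcripts were left out, these values were 8107 and 9850 CPM inside, against 6532 and 6507 CPM outside. Taken cell by cell over all cells, the median was 71.3 antiviral UMIs per 10000 UMIs of the cell inside, against 53.6 outside, in the library labelled PD-1-KO, and 76.6 against 57.1 in wild-type kidney. The threshold therefore lies within a rise of the antiviral level over the bins. Only the summed level over all cells in the library labelled PD-1-KO was alike on both sides of the threshold. Whether single cells form a continuous range or separate groups was not tested.

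**Figure D2:**
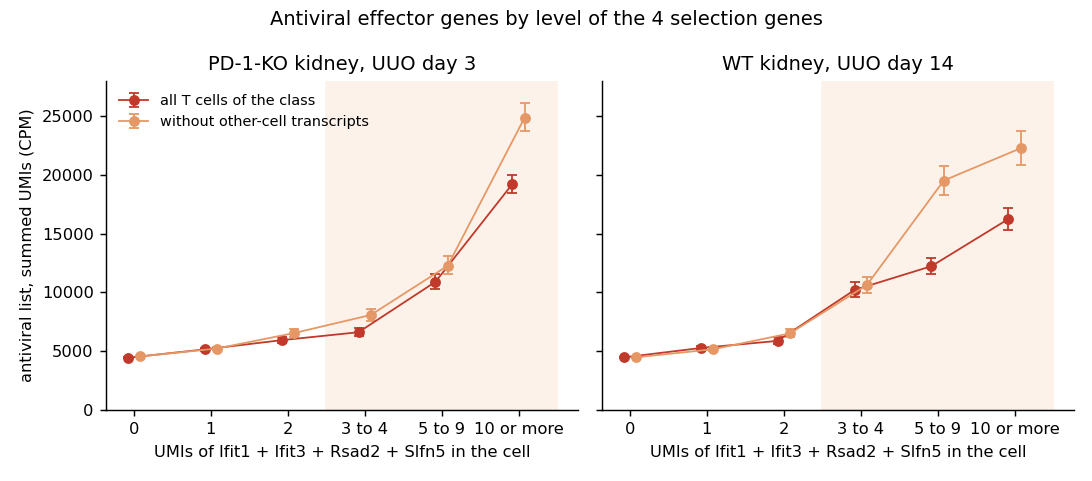
Summed CPM of the antiviral effector list (y axis) by the number of UMIs of the 4 selection genes in a T cell (x axis), in the library labelled PD-1-KO (left) and wild-type kidney (right), for all cells (red) and without cells holding other-cell transcripts (orange). Bars are exact Poisson 95% intervals, and shading marks the interferon-high classes, which run up to 19227 and 16249 CPM over all cells.

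Single cells varied widely. Per 10000 UMIs of the cell, the antiviral list gave a median of 109 UMIs in interferon-high cells labelled PD-1-KO, with a range of 13.2 to 416, against a median of 43.3 in T cells at 0. The wild-type cells had a median of 144 and a range of 8.09 to 455, against a median of 42.7. The 95th percentile of the T cells at 0 was exceeded by 91 of 139 (65.5%) and 78 of 108 (72.2%) interferon-high cells. At the other end, 20 cells labelled PD-1-KO and 7 wild-type cells lay at or under the median of the T cells at 0. Without the cells with other-cell transcripts the medians of the interferon-high cells were 123 and 153. The groups of cells overlapped in both libraries.

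**Figure D3:**
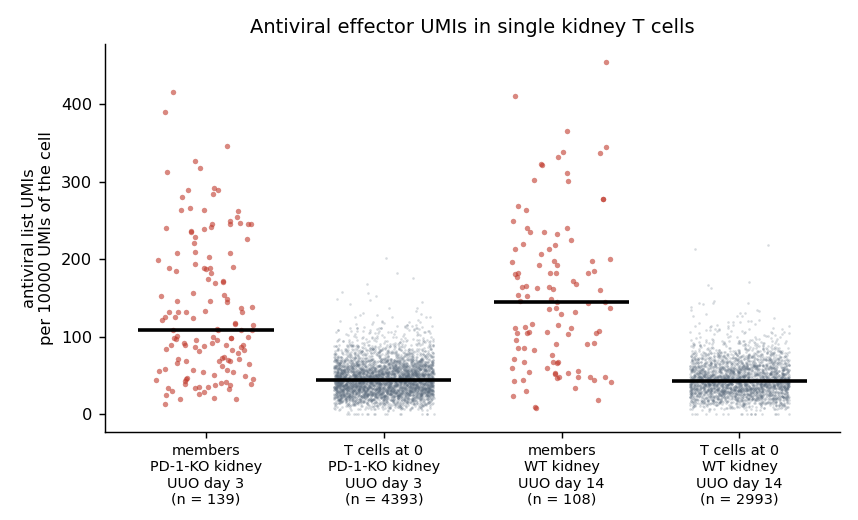
Each point is 1 kidney T cell, with its antiviral list UMIs per 10000 of its own UMIs on the y axis; black lines are medians. Interferon-high cells have medians of 109 and 144, T cells at 0 medians of 43.3 and 42.7, and the clouds overlap.

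Cells that showed more of the 4 genes had higher antiviral levels. The antiviral sum was 6814, 8215, 14978 and 19528 CPM in cells labelled PD-1-KO with 1, 2, 3 and 4 of the genes, and 6051, 13646, 15175 and 18606 CPM in wild-type cells. Cells that carried Slfn5 alone stood at 5960 CPM in the library labelled PD-1-KO and 7230 CPM in wild-type kidney. They are part of the cells with a single gene, whose values of 6814 and 6051 CPM include them. Cells that held an Ifit1 UMI stood at 15471 and 15430 CPM.

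Across the transcriptome, 172 of 3742 measured genes (4.6%) were at least 2-fold higher in interferon-high T cells than in T cells at 0 in both libraries, and 8 (0.214%) were at least 2-fold lower. A gene counted as measured with at least 50 UMIs in both classes together and 50 CPM in the higher class. After the other-cell filter, 112 of 3647 genes (3.07%) were higher and 11 (0.302%) lower. Of the 172 genes, 58 belonged to the interferon lists, of the 112 genes 65 did, and 80 genes were shared. The share of all measured genes on these lists together is not given here. The largest of them, antiviral effectors, held 35 of the 3742 and 35 of the 3647 measured genes. Sensors held 12 and 11 of them, GTPases 12 and 13, signalling factors 12 and 12, and class I genes 19 and 19. A gene expressed only in the interferon-high cells can pass this filter only by being high, so the list counts below describe the measured genes and are no support by themselves.

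Many of the genes with the highest ratios over all cells were not interferon genes, and they came from very few cells. Sparc, a matrix protein of vessels and fibroblasts, had 551 CPM in interferon-high cells labelled PD-1-KO, against 3.95 CPM in T cells at 0, and 153 against 2.62 CPM in wild-type kidney. A single cell held 56.8% of its UMIs in the library labelled PD-1-KO and 83.3% in wild-type kidney. Mgp, matrix Gla protein, had 98.4% of its wild-type UMIs in 1 cell, Apoe, a lipid carrier of macrophages, 97.8%, and Krt8, an epithelial keratin, 92.3% of those in the library labelled PD-1-KO in 1 cell. No Sparc UMI remained in the interferon-high cells of either library once the cells with other-cell transcripts were left out. Of the 20 genes highest over all cells, 6 were interferon-list genes, against 18 of the 20 highest without those cells, and 4 genes stood in both sets. These counts are a description, as the joint share of those lists over all measured genes is not given.

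The share of promoters with the core also differed between these sets. Of the 80 genes that were 2-fold higher both over all cells and without the cells with other-cell transcripts, 66 had a RefSeq promoter and 30 of these held the GAAANNGAAA core (45.5%). Of the 92 genes higher only over all cells, 3 of 63 with a promoter held it (4.76%). Among measured genes that were not 2-fold higher it was 118 of 2876 (4.10%), and among all genes with a RefSeq promoter 1079 of 27025 (3.99%). The core was not found in the windows of Cmpk2, Oasl2, Irf7, Xaf1 and Daxx. Of the 80 shared genes, 54 belonged to the interferon lists. On the antiviral list, 17 of 38 genes with a promoter held the core (44.7%). The share of 45.5% is therefore no support apart from list membership. These shares describe letters in a window of 300 bases and no binding was measured.

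Interferon transcripts themselves were close to absent. The 20 genes of type I and type III interferons in the files gave 2 UMIs in all 6960 kept cells of the library labelled PD-1-KO, 1 of Ifnab and 1 of Ifnl2, neither in an interferon-high cell. In the 5212 kept wild-type cells they gave 0 UMIs, which allows up to 0.292 CPM for a gene. Ifng, which encodes interferon-gamma, had 549 UMIs in 454 cells of the library labelled PD-1-KO and 315 UMIs in 199 wild-type cells. In the interferon-high T cells it had 22.2 and 25.4 CPM, from 11 and 7 UMIs, against 34.6 and 26.7 CPM in T cells at 0. Ifng was thus no higher in these cells than in other T cells beyond counting error. 

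The receptor genes differed little over all cells. Ifnar1 had 178 CPM in interferon-high cells and 178 CPM in T cells at 0 of the library labelled PD-1-KO, and 153 against 146 CPM in wild-type kidney, log2 ratios of 0.00 (-0.33 to 0.31) and 0.06 (-0.42 to 0.51). Ifnar2 stood at 34.3 against 29.0 CPM and at 47.2 against 32.3 CPM, with intervals that include 0. In cells with fewer than 3 other-cell UMIs, Ifnar2 stood at a log2 ratio of -0.01 (-1.24 to 1.0) in the library labelled PD-1-KO and 1.17 (0.23 to 1.98) in wild-type kidney. Ifngr1 had 961 CPM, against 1410 CPM in T cells at 0, in the library labelled PD-1-KO, a log2 ratio of -0.55, and 1322 against 1586 CPM in wild-type kidney, -0.26. With those mixed cells left out, the ratios of Ifngr1 were -0.18 and 0.17. None of the 4 measured receptor genes was 2-fold apart in both libraries.

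Among the 12 measured signalling factors, 3 were 2-fold higher in both libraries, Stat2 and Irf7 among them, against 4.6% of all measured genes. The list medians were 0.32 and 0.60. After the other-cell filter, 4 of 12 were, Irf9 being the one added, against 3.07% of all measured genes, and the medians were 0.47 and 0.83. Kept only for their level in T cells at 0, 1 of 9 factors was 2-fold higher, against 46 of 3403 of all genes. The medians were then 0.14 and 0.28. Without the cells with other-cell transcripts 2 of 9 were, against 47 of 3386, with medians of 0.23 and 0.28. Stat2, which acts in type I signalling, had 143 CPM in interferon-high cells labelled PD-1-KO, against 33.9 CPM in T cells at 0, and 160 against 35.1 CPM in wild-type kidney, log2 ratios of 2.08 and 2.19, or 2.27 and 2.53 without the cells with other-cell transcripts. Irf7, which amplifies type I interferon production, stood at log2 ratios of 1.55 (1.16 to 1.92) and 2.89 (2.46 to 3.30), or 1.81 and 3.13 without the cells with other-cell transcripts. Irf9, a DNA-binding factor of type I signalling, had 0.66 and 1.47, or 1.06 and 1.46 without the cells with other-cell transcripts. The kinase genes Jak1 and Tyk2 were at -0.51 and -1.10 in the library labelled PD-1-KO and at -0.24 and -1.08 in wild-type kidney, Tyk2 from only 10 and 5 UMIs.

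The antiviral effectors made up the largest group, with 30 of 35 measured genes at least 2-fold higher in both libraries and 0 lower, against 4.6% and 0.214% of all measured genes. The median log2 ratio of the list was 2.11 in the library labelled PD-1-KO and 2.35 in wild-type kidney, against -0.11 and -0.09 over all measured genes. In cells with fewer than 3 other-cell UMIs, 31 of 35 were higher, against 3.07% of all measured genes. The medians there were 2.54 and 2.57, against -0.06 and -0.04 over all measured genes. When genes were kept only for their level in T cells at 0 (at least 50 CPM in both libraries), 9 of 13 antiviral genes were 2-fold higher, with medians of 1.54 and 1.64, against 46 of 3403 of all genes.

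Isg15, a ubiquitin-like modifier, had 190 CPM in interferon-high cells labelled PD-1-KO, against 11.4 CPM in T cells at 0, and 309 against 20.1 CPM in wild-type kidney. Its log2 ratios were 4.05 (3.64 to 4.46) and 3.94 (3.52 to 4.36), and a UMI was seen in 37.4% and 44.4% of the cells, against 2.32% and 3.37% of T cells at 0. Cmpk2, the mitochondrial nucleotide kinase beside Rsad2 on chromosome 12, followed with 121 against 7.91 CPM and 196 against 6.64 CPM. Oas3 and Oasl2 belong to the family of oligoadenylate synthetases and their relatives, which sense double-stranded RNA. Oasl2 had 115 against 8.51 CPM in the library labelled PD-1-KO and 156 against 11.4 CPM in wild-type kidney. Oas3 had 115 against 16 CPM and 258 against 13.1 CPM. Bst2, tetherin, which holds budding virus at the membrane, had 357 against 69.9 CPM and 378 against 49.4 CPM. With those mixed cells left out, the log2 ratios were 4.54 and 4.33 for Isg15, 4.23 and 5.35 for Cmpk2, 3.96 and 3.78 for Oasl2, 3.38 and 4.68 for Oas3, and 2.73 and 2.92 for Bst2. The effectors Zc3hav1 and Shisa5 were among those not 2-fold apart, with log2 ratios of -0.18 and 0.09 in the library labelled PD-1-KO and 0.00 and 0.22 in wild-type kidney.

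Some effector genes have close copies, and no source used here says how reads shared between them were counted. Ifit1bl1, a neighbour of Ifit1, had 178 against 20.4 CPM in the library labelled PD-1-KO and 174 against 11.9 CPM in wild-type kidney, and its UMIs could in part be those of a relative. Ifitm3, which blocks virus entry and is also abundant in vessels and macrophages, shows the effect of the mixed cells. It had 547 against 20.1 CPM and 356 against 6.81 CPM over all cells, and 69.3 against 11.6 CPM and 97.0 against 7.05 CPM without the cells with other-cell transcripts.

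Among sensors of foreign nucleic acid, 8 of 12 measured genes were 2-fold higher in both libraries, against 4.6% of all measured genes, with medians of 1.89 and 2.25. Without the cells with other-cell transcripts 9 of 11 were, against 3.07%, with medians of 2.22 and 2.61. Kept only for their level in T cells at 0, 4 of 8 sensors were 2-fold higher, against 46 of 3403 of all genes, with medians of 1.32 and 1.70. Without the cells with other-cell transcripts 7 of 9 were, against 47 of 3386, with medians of 2.12 and 2.48. Ifih1, which encodes the RNA sensor MDA5, had 184 CPM in interferon-high cells labelled PD-1-KO, against 22.1 CPM in T cells at 0, and 149 against 15.7 CPM in wild-type kidney. Ddx58, which encodes RIG-I, had 256 against 81.5 CPM and 396 against 95.5 CPM. Zbp1, a sensor of Z-form nucleic acid that can start necroptosis, had 214 against 52.7 CPM and 298 against 46.4 CPM. The DNA sensor Aim2 was not higher, with 109 against 130 CPM and 83.5 against 103 CPM. In the Schlafen family, Slfn8 had log2 ratios of 2.00 and 2.08 and Slfn1 of 1.68 and 2.57, while Slfn2 stood at 0.65 and 1.01.

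Guanylate-binding proteins and immunity-related GTPases, which interferon-gamma induces strongly and which coat pathogen vacuoles, were 2-fold higher in both libraries in 11 of 12 measured genes, and in 13 of 13 without the cells with other-cell transcripts. Over all measured genes the shares were 4.6% and 3.07%. Kept only for their level in T cells at 0, 4 of 4 were 2-fold higher in either setting, against 46 of 3403 and 47 of 3386 of all genes. Gbp2 had 442 CPM in interferon-high cells labelled PD-1-KO, against 84.2 CPM in T cells at 0, and 439 against 78.2 CPM in wild-type kidney. Igtp had 248 against 45.0 CPM and 182 against 59.9 CPM, and Irgm1 214 against 41.8 CPM and 345 against 49.9 CPM. Gbp8 was the exception over all cells, with log2 ratios of 1.08 and 0.54. Cxcl10, a chemokine that draws CXCR3-bearing T cells, had 493 against 31.3 CPM in the library labelled PD-1-KO and 280 against 34.6 CPM in wild-type kidney. A Cxcl10 UMI was seen in 28.1% and 22.2% of interferon-high cells, against 3.46% and 3.21% of T cells at 0. After the other-cell filter, it had 704 against 23.2 CPM and 345 against 28 CPM. Ccl5, a chemokine of memory T cells, had 2711 against 4150 CPM and 1838 against 1674 CPM over all cells, and 4366 against 4893 CPM and 2484 against 1773 CPM without the cells with other-cell transcripts.

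Antigen-presentation genes of class I differed less, although they are classical interferon targets. None of 19 measured genes reached 2-fold in both libraries over all cells, and the median log2 ratios were 0.39 and 0.45. Tap1, a peptide transporter, stood at 0.86 and 0.87, whereas H2-K1 at -0.08 and 0.02 and B2m at 0.05 and 0.25 were close to the T cells at 0. In cells with fewer than 3 other-cell UMIs, 3 of 19 were 2-fold higher, Tap1 among them at 1.23 and 1.11, against 3.07% of all measured genes. The checkpoint ligand gene Cd274, which encodes PD-L1, had 196 CPM in interferon-high cells labelled PD-1-KO, against 86.3 CPM in T cells at 0, and 178 against 65.0 CPM in wild-type kidney, log2 ratios of 1.18 (0.86 to 1.49) and 1.45 (0.99 to 1.89). Pdcd1, its receptor, had log2 ratios of -0.74 and -0.80 over all cells, and of -0.29 (-0.72 to 0.11) and -0.35 (-1.03 to 0.26) without the cells with other-cell transcripts. Cd274 was the single measured inhibitory-receptor-list gene of 5 that was 2-fold higher in both libraries, against 4.6% of all measured genes.

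Inhibitors that end the response were mixed. Usp18, which removes ISG15 and blocks the type I receptor, had 46.4 CPM in interferon-high cells labelled PD-1-KO, from 23 UMIs, against 2.33 CPM in T cells at 0, and 69.0 CPM, from 19 UMIs, against 3.49 CPM in wild-type kidney. Its log2 ratios were 4.32 (3.42 to 5.22) and 4.30 (3.32 to 5.29), though at this level it did not count as measured in both libraries. Socs1, which blocks Janus kinases, stood at 0.56 (0.08 to 1.0) and 0.35 (-0.23 to 0.88). None of the 6 measured inhibitors was 2-fold higher in both libraries over all cells. Without the cells with other-cell transcripts 1 of 7 was, Trim21, against 3.07% of all measured genes.

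The medians of MHC class II and immediate early genes changed sign when the mixed cells were left out. MHC class II genes, which present antigen on macrophages, dendritic cells and B cells, had median log2 ratios of 2.41 and 2.72 over all cells. There 4 of 4 measured genes were 2-fold higher, against 4.6% of all measured genes. The medians were -0.51 and -1.77 without the cells with other-cell transcripts. For H2-Ab1 a single cell held 36.1% of the UMIs in interferon-high cells labelled PD-1-KO and 71.0% in wild-type kidney. Immediate early genes, which respond to stimulation and to tissue digestion, had medians of 0.71 and 0.40 over all cells and of -0.22 and -0.29 without those cells. Fos stood at 1.66 and 0.97 over all cells and at -0.47 and -0.56 without them.

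**Figure D4:**
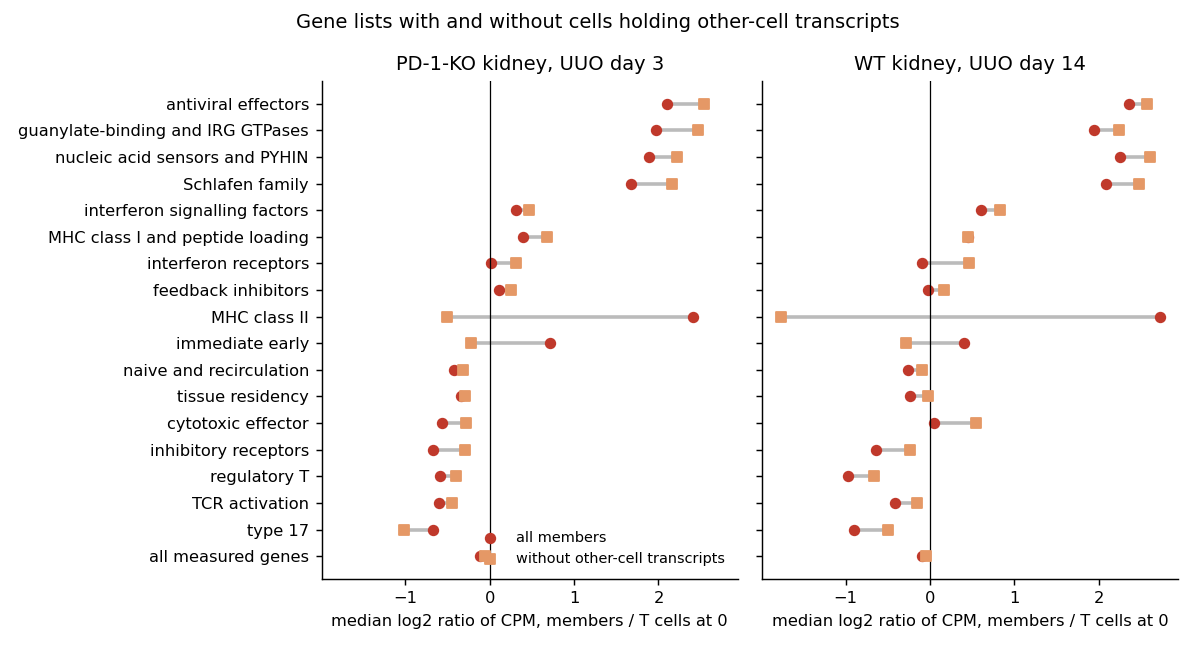
Median log2 ratio of CPM in interferon-high T cells over T cells at 0 (x axis) for 17 gene lists and all measured genes (y axis), in the library labelled PD-1-KO (left) and wild-type kidney (right). Red circles are all cells and orange squares leave out cells with other-cell transcripts; the antiviral list stays at 2.11 and above, while MHC class II passes from 2.41 and 2.72 to -0.51 and -1.77.

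Genes of T cell state mostly stood at or below their level in T cells at 0. Over all cells this also held for general T cell markers, against which the ratios below are to be read. The 7 measured ones had median log2 ratios of -0.61 and -0.40, and of -0.20 and -0.04 without the cells with other-cell transcripts. The 4 measured regulatory T cell genes had median log2 ratios of -0.59 and -0.97 and were all below 0 in both libraries. The 3 measured type 17 genes, which belong to interleukin-17-producing T cells, had -0.67 and -0.90 and were also all below 0. The 6 measured T cell receptor activation genes had -0.60 and -0.42. With those mixed cells left out, the medians were -0.39 and -0.66 for regulatory genes, -1.01 and -0.50 for type 17 genes, and -0.44 and -0.16 for activation genes. Of the type 17 genes, 1 of 4 was then 2-fold lower in both libraries, against 0.302% of all measured genes. No naive and recirculation gene of 9 measured was 2-fold apart, and the medians were -0.42 and -0.26, or -0.32 and -0.10 without the cells with other-cell transcripts. Ccr7, a lymph node homing receptor, had 36.3 CPM in interferon-high cells labelled PD-1-KO, against 41.6 CPM in T cells at 0, and 10.9 CPM, from 3 UMIs, against 33.4 CPM in wild-type kidney. Cxcr6, a receptor of tissue-resident T cells, had 139 against 307 CPM and 385 against 550 CPM. Its log2 ratios were -1.14 and -0.51, and -0.56 and -0.03 without the cells with other-cell transcripts.

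None of the measured cytotoxic genes was 2-fold apart in both libraries. The median log2 ratio of the 10 measured genes was -0.57 in the library labelled PD-1-KO and 0.05 in wild-type kidney, and over 12 genes -0.28 and 0.54 without the cells with other-cell transcripts. Gzmb, a granzyme that starts apoptosis in target cells, had 194 CPM in interferon-high cells labelled PD-1-KO, against 158 CPM in T cells at 0, and 389 against 119 CPM in wild-type kidney, where 1 cell held 26.2% of its UMIs. Gzmk, a granzyme of memory CD8 T cells, had 129 against 119 CPM and 94.4 against 39.5 CPM. Nkg7, a granule protein of cytotoxic cells, had 818 against 1172 CPM and 570 against 521 CPM. After the other-cell filter, the log2 ratios were 0.69 and 1.79 for Gzmb, 0.59 and 1.67 for Gzmk, and -0.07 and 0.61 for Nkg7. The difference between the libraries in these ratios was not tested, and the share of CD8 T cells also differed between them.

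Few genes were lower. The lowest ratios over all cells in both libraries included Hlf, which encodes a PAR bZIP transcription factor, with 32.3 CPM in interferon-high cells labelled PD-1-KO, against 101 CPM in T cells at 0, and 36.3 against 143 CPM in wild-type kidney. Mki67, a marker of dividing cells, had 30.3 against 75.3 CPM and 10.9 against 64.1 CPM, the last from 3 UMIs. The 5 measured cell cycle genes had median log2 ratios of -0.64 and -0.33 over all cells. Without the cells with other-cell transcripts 4 were measured, with medians of -0.02 and -0.002, and 0 were 2-fold lower in both libraries. Pxdc1 stood at log2 ratios of -1.30 and -1.77. Hlf and Pxdc1 were 2-fold lower in both libraries also without the cells with other-cell transcripts, at -1.50 and -1.30 for Hlf and -1.02 and -1.34 for Pxdc1.

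Cells passing the rule were found in every T cell subset that could be read from the transcripts. Cells were sorted by their UMIs of Foxp3, Cd8a or Cd8b1, Cd4 and Trdc, the gamma-delta receptor gene. CD8 cells made up 60.4% (51.8 to 68.6%) of interferon-high cells and 59.5% (58.1 to 61.0%) of T cells at 0 in the library labelled PD-1-KO. In wild-type kidney they made up 35.2% (26.2 to 45.0%) of interferon-high cells and 21.7% (20.2 to 23.2%) of T cells at 0. In cells with fewer than 3 other-cell UMIs, CD8 cells were 68.2% of interferon-high cells and 63.1% of T cells at 0 in the library labelled PD-1-KO, and 38.8% and 23% in wild-type kidney. That filter did not take from all subsets alike. In wild-type kidney it left 110 of 171 cells with Foxp3 and no Cd8 UMI, and 783 of 802 CD8 T cells. In the library labelled PD-1-KO it left 20 of 24 and 2842 of 3086. Filtered shares and regulatory gene medians thus come from a changed mix of subsets. Cells with none of these transcripts were the counterpart, with 22.3% against 25.8%, and 31.5% against 49.4% in wild-type kidney. Such shares have a background, whose source was not tested: of 76 B cells in each library, 17.1% in the library labelled PD-1-KO held a Cd8 UMI and 3.95% in wild-type kidney, at median depths of 1759 and 1445.5 UMIs.

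The shares were also read at equal depth. With each cell thinned to 1000 UMIs, 50 interferon-high cells labelled PD-1-KO and 39 wild-type cells remained, and CD8 cells were 68.0% (53.3 to 80.5%) and 43.6% (27.8 to 60.4%) of them, against 56.6% and 19.2% of T cells at 0. Seen from the subset, 84 of 3086 CD8 T cells labelled PD-1-KO (2.72%) and 38 of 802 wild-type CD8 T cells (4.74%) were interferon-high. For CD4 T cells it was 13 of 374 (3.48%) and 21 of 549 (3.83%). Regulatory cells, with a Foxp3 UMI, contributed 1 of 24 and 4 of 171, and Trdc cells 3 of 192 and 9 of 259. Among the 76 B cells of each library, 0 held a Foxp3 UMI and 1 a Trdc UMI, and 1 in the library labelled PD-1-KO and 2 in wild-type kidney reached 3 UMIs of the 4 selection genes.

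Within a library, CD8 and CD4 interferon-high cells had antiviral levels whose counting intervals overlap. Interferon-high CD8 cells had 12900 CPM (12440 to 13372) in the library labelled PD-1-KO, against 4577 CPM in CD8 cells at 0, and 18300 CPM (17294 to 19349), against 4990 CPM, in wild-type kidney. The CD4 cells had 12042 CPM (11033 to 13118) against 4541 CPM, and 17090 CPM (15830 to 18423) against 4712 CPM. Other subsets did not all overlap with the CD8 cells. Trdc cells, 3 and 9 in number, had 11614 CPM (9210 to 14455) and 11566 CPM (10138 to 13140). Cells with none of the subset transcripts had 10099 CPM (9580 to 10640) and 10273 CPM (9689 to 10883). Without the cells with other-cell transcripts these had 13833 and 13062 CPM, against 13533 and 18300 CPM in CD8 cells. Cells with both Cd4 and Cd8 transcripts, 7 and 2 in number, had 4618 and 1298 CPM, near or under the 4551 and 4648 CPM of such cells at 0, and without the cells with other-cell transcripts the 5 such cells labelled PD-1-KO had 15760 CPM and the 1 wild-type cell 5310 CPM (3035 to 8624).

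**Figure D5:**
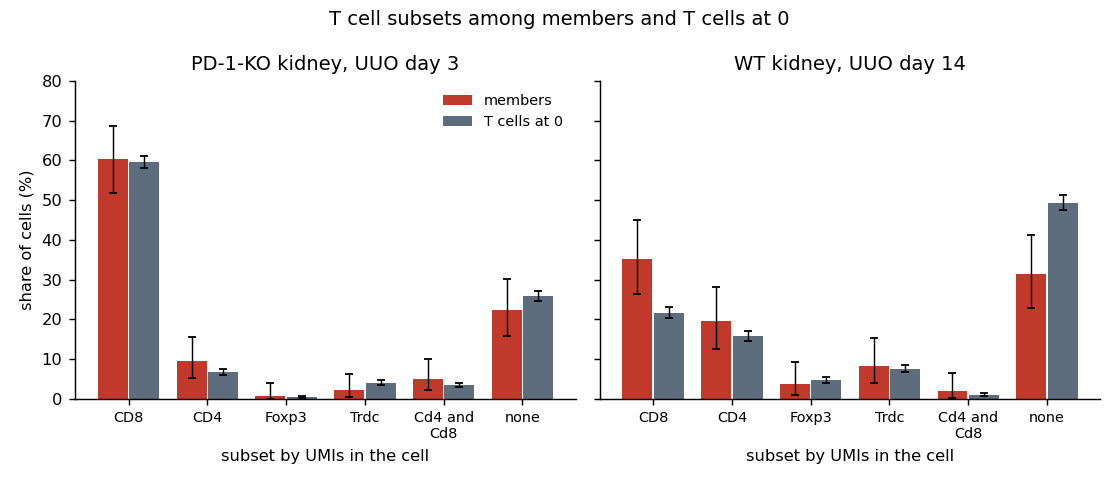
Share of cells (y axis, percent) in each T cell subset (x axis) for interferon-high T cells (red) and T cells at 0 (grey) of the library labelled PD-1-KO (left) and wild-type kidney (right), with exact binomial 95% intervals. CD8 cells are 60.4% and 59.5% on the left and 35.2% and 21.7% on the right.

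Side by side, the kidney libraries had like shares of interferon-high cells, 2.68% of T cells (2.26 to 3.16%) labelled PD-1-KO 3 days after UUO and 3.02% (2.48 to 3.63%) of wild-type T cells 14 days after UUO. Their antiviral sums, 10827 and 12529 CPM, gave a log2 ratio of -0.21 (-0.27 to -0.15) for PD-1-KO over wild type, and -0.20 (-0.27 to -0.13) without the cells with other-cell transcripts. In the T cells at 0 the same ratio was -0.01 (-0.03 to 0.01). Irf7 in interferon-high cells was lower in the library labelled PD-1-KO by a log2 ratio of -0.83 (-1.33 to -0.32) and Isg15 by -0.70 (-1.14 to -0.26). In the T cells at 0 the ratio was 0.52 (0.27 to 0.77) for Irf7 and -0.81 (-1.20 to -0.42) for Isg15, so Isg15 was lower there in both classes of cells. Cxcl10 was higher in interferon-high cells labelled PD-1-KO, at 0.82 (0.44 to 1.21), against -0.14 (-0.40 to 0.12) in the T cells at 0. These intervals cover counting error in 1 library each, and what sets the libraries apart, genotype, day or the preparation, cannot be told apart.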

How the data were processed

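Cells of 5 libraries were profiled on the BD Rhapsody system. The deposited values are UMI counts per gene and cell, not normalized. Per the submitters' processing notes, CASAVA 1.8, UMI-tools, Seurat and mm10 were used; no source used here gives the aligner, annotation or cell calling, and the labels' digestion protocol names another organ. Gene names of wild-type kidney at day 14 came from the other libraries' identical gene lists, which was checked by the correlation across genes with the library labelled PD-1-KO (0.992, or 0.209 with genes shifted by 1). Of 31253 genes, 31107 had their identifier in GENCODE M21 (GRCm38). The 4 libraries with counts held 16466027 (PD-1-KO-labelled kidney), 10362652 (wild-type kidney), 14756545 (UUO intestine) and 8717372 UMIs (sham intestine). Wild-type kidney at day 14 shared 24 or 25 of its 5282 barcodes with each of 3 other libraries, 1 of them an interferon-high cell; barcodes of the library labelled PD-1-KO were not used here.

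Counts were summed over the cells of a class and scaled to CPM. Log2 ratios carry exact conditional binomial intervals, levels exact Poisson and shares exact binomial intervals, at 95%. Where a class had no UMI of a gene, 1 CPM was added to both classes; the floor was 3 counts. The self-test on simulated counts checked the ratios and calls for counting error only. It drew summed counts with no spread between cells, so it cannot show calls that rest on 1 cell. No test was made, with 1 library per group. No doublet caller was run; cells with 3 or more UMIs of 47 other-cell genes, or over 5000 UMIs, were left out as alternatives chosen after the data were seen. Genes named are the 20 highest and 10 lowest by the smaller ratio of both libraries, up to 6 members of a list, and a fixed set; Aim2, Zc3hav1, Shisa5, Slfn2, Gbp8 and Nkg7 were chosen after their values were seen, as list members short of 2-fold in both libraries. The cells, the 24 gene lists and the 17 marker lists were chosen with earlier results of these data known. Python 3.11.15, numpy 2.4.6, scipy 1.17.1, pandas 2.3.3 and matplotlib 3.10.9 were used.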

Additional observations from a re-analysis of the deposited data

Results flagged for a closer look

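Cells without a Cd3 UMI also reached the threshold; such a cell may still be a T cell whose Cd3 was not captured, which was not tested. Among kidney cells with no Cd3 UMI, 30 of 1773 in the library labelled PD-1-KO (1.69%, 1.14 to 2.41%) and 36 of 1630 in wild-type kidney (2.21%, 1.55 to 3.04%) held at least 3 UMIs of the 4 genes. Their antiviral sums were 9961 and 10356 CPM, against 4103 and 4279 CPM in cells with no Cd3 UMI at 0 of the 4 genes. In the intestine, 44 of 4946 kept cells after UUO (0.890%, 0.647 to 1.19%) and 19 of 3501 after sham surgery (0.543%, 0.327 to 0.846%) passed the threshold. The filter used above for T cells kept 14 of the 30 and 17 of the 36 kidney cells. It kept 9 of the 44 and 8 of the 19 intestinal cells. Its list holds markers of ILC2, B cells, macrophages and epithelium. In cells with no Cd3 UMI and in intestine, these may be the cell's own transcripts, which was not tested. These counts therefore do not show how many of the cells were mixed. The 44 and 19 intestinal cells were deep, with medians of 3420 and 3119 UMIs, against 2177 and 2039 UMIs over all kept intestinal cells. They were flagged as signal in cells that the comparisons of kidney T cells do not use, and the difference between UUO and sham intestine was not tested.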

How the results depend on the processing

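Of 104 values recomputed under other settings, 73 stayed within their counting interval or, for counts of genes, within 1.5 times, and 31 did not. No paired analysis was possible because each group is 1 library. The share of T cells that was interferon-high, 2.68% in the library labelled PD-1-KO and 3.02% in wild-type kidney, was 5.28 and 6.31% at a threshold of 2 UMIs, 1.45 and 1.62% at 5 UMIs, and 1.24 and 1.29% with cells thinned to 1000 UMIs; wild-type kidney had 3.85% when cells with 2 or more UMIs of 42 B cell, monocyte, epithelium, ILC2 and NK/ILC1 markers were left out. The antiviral median was 1.60 and 1.75 at a threshold of 2 UMIs. In the library labelled PD-1-KO it was 2.61 at 5 UMIs, 2.74 thinned, 2.49 without cells with those 42 markers, 2.51 in cells of 1500 to 4000 UMIs, 2.54 without cells with other-cell transcripts and 2.46 without cells over 5000 UMIs. The CD8 share of interferon-high cells minus that of T cells at 0, 0.882 and 13.5 percentage points, was 11.4 and 24.4 thinned; over all settings it ranged from -5.91 to 11.4 in the library labelled PD-1-KO. The naive median in wild-type kidney was -0.85 at 5 UMIs. The 172 genes higher in both libraries were 108 with at least 2 Cd3 UMIs and a T cell receptor UMI, 99 with at least 100 UMIs and 100 CPM, 450 with at least 20 UMIs and no CPM minimum, 110 in cells of 1500 to 4000 UMIs, 112 without cells with other-cell transcripts and 108 without cells over 5000 UMIs. The 8 genes lower were 0 at a threshold of 2 UMIs, 42 at 5 UMIs, 173 thinned, 25 without cells with those 42 markers, 5 with at least 100 UMIs and 100 CPM, 326 with at least 20 UMIs and no CPM minimum, and 21 in cells of 1500 to 4000 UMIs. The settings that leave out cells with other-cell transcripts or over 5000 UMIs were added after the data were seen. Unless stated, the cause was not tested.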

Other observations

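Among cell death genes, Daxx, which encodes a chromatin adaptor, had 153 CPM in interferon-high cells labelled PD-1-KO, against 31.7 CPM in T cells at 0, and 225 against 32.1 CPM in wild-type kidney. Ly6a, which encodes the stem cell antigen Sca-1, had 1127 against 478 CPM and 2894 against 378 CPM over all cells, where 1 wild-type cell held 43.3% of its UMIs, and 1069 against 380 CPM and 1228 against 361 CPM without the cells with other-cell transcripts. Bcl2, an inhibitor of apoptosis, had log2 ratios of -1.19 and -0.90 over all cells and of -0.81 and -0.50 without them.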
